A study of Rattus norvegicus with 28 samples.

Results

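Whole-brain RNA of female rats at estrus was compared between the inbred strains SHR/OlaIpcv and BN-Lx/Cub, with 4 animals in each strain. These 8 libraries were chosen by their labelled strain, sex and stage from the 28 libraries of the study, and the 32623 gene rows of the count table were used without the synthetic spike-in RNAs. The study asked how sex and the stage of the female cycle interact with genetic background in brain RNA. Its remaining 20 libraries come from the same strains, as females at pre-estrus, females at post-estrus and males. The labels name no treatment, age or engineered allele for the estrus groups, and they call the replicates biological. The extraction protocol speaks of male rats that had not been given alcohol, whereas the labels of all 8 libraries name females, and the labels were followed.

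SHR is an inbred model of spontaneous hypertension. BN-Lx is a Brown Norway strain that carries the luxate mutation, which affects limb development. The strains are the progenitors of a recombinant inbred panel used to map the genetics of blood pressure, metabolism and behaviour in the rat. Estrus is the stage of the rodent ovarian cycle around ovulation, after circulating estradiol has passed its peak.

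Counts assigned to genes ran from 44717887 to 67412005 per estrus library, and 18511 to 19959 genes had a count in a library. Spike-ins took 1.465% to 5.243% of all counts. No count was seen in any of the 8 libraries for 10092 gene rows. The files identify genes by Ensembl identifier alone and do not pair them with names, so the markers of neurons, glia and other brain cell types were not looked up, and a few genes are given by identifier while the rest are described by length and level. In a whole brain, fewer cells of a type and less RNA per cell cannot be told apart. The library name in each description ends in b35 or b37, whose meaning is not stated. Each strain had 2 libraries of either suffix at estrus, and the suffix was treated as a possible batch. The descriptions also hold a 6-digit number of unstated meaning. BN-Lx replicates 8 and 9 share one such number and SHR replicates 5 and 9 another, which are the b35 libraries of each strain. No number occurs in both strains, so what it marks cannot be told apart from strain, and the p-values take the 4 animals of a strain as independent.

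A small share of the genes tested was called different between the strains at estrus, and many of the called differences were large. Of 18134 genes tested, 406 (2.24%) were called at an adjusted p under 0.05 by edgeR's quasi-likelihood test. SHR was higher in 161 of them (0.888% of genes tested) and lower in 245 (1.35%). By the same test 1789 genes (9.87%) had an unadjusted p under 0.05, so the share called is not the share that differs. The median absolute difference of the called genes was 1.13 on the log2 scale, where 1 is a 2-fold difference, against 0.17 over all genes tested. The middle 50% of the called genes spanned 0.66 to 3.14. Differences beyond 4-fold were called in 144 genes, 52 higher and 92 lower in SHR, and differences beyond 64-fold in 40 genes, 22 higher and 18 lower. The 4 values of one strain lay wholly above the 4 of the other in 380 called genes, which compares with 6.85% of all genes tested. All 406 kept their sign within the b35 and within the b37 libraries, against 35.2% of all genes tested. The fit had used both sets, so the agreement of the 406 was partly built in. Most genes tested did not keep their sign in both sets, and why was not tested. In separate fits, 371 genes were called among the b35 libraries, of which 165 were among the 406. Among the b37 libraries 122 were called, of which 114 were among the 406. The count fell to 270 without SHR replicate 9, to 167 when the 8 libraries were fitted alone, and rose to 649 with DESeq2 and to 1266 with limma. SHR was the higher strain in 39.7% of the calls, in 49.8% of limma's and in 55.5% of those in the b35 libraries.

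**Figure D1:**
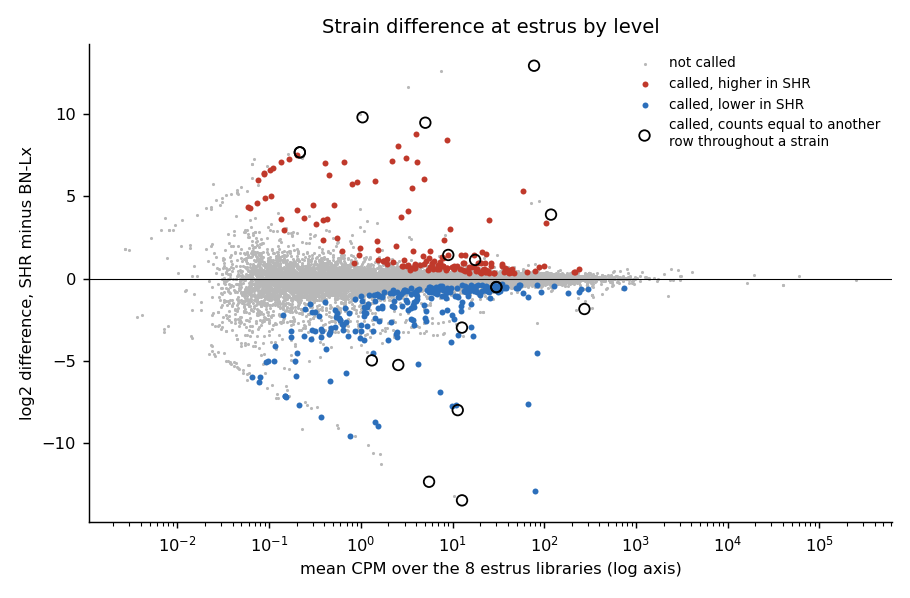
Each point is a gene tested at estrus, placed by its mean level in CPM (log axis) and by its log2 difference, SHR minus BN-Lx. Of the 406 called genes, 161 lie above 0 and 245 below it, and the open circles mark 17 called rows whose counts equal those of another row throughout a strain.

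Called genes lay at every level of expression. Levels are in CPM, a gene's count scaled to a common library total with TMM factors. The share called was 2.19% of genes under 1 CPM, 3.54% of those from 1 to 4 CPM and 1.14% of those over 64 CPM. The sizes differed with level. Of the 144 genes called beyond 4-fold, 81 were under 1 CPM and 31 from 1 to 4 CPM. A further 23 were from 4 to 16 CPM, 3 from 16 to 64 CPM and 6 over 64 CPM. The median absolute log2 difference of called genes was 3.63 under 1 CPM, where the median standard error was 0.74, and 0.80 over 64 CPM, where it was 0.13. By length, the share called was 5.91% under 200 bases (22 of 372 genes, 20 of them beyond 4-fold) and 1.65% among genes of 4000 bases or more. Of those 22, 11 had counts equal to another row's throughout a strain, and with such rows added together 12 of 319 (3.76%) were called under 200 bases. For the 13983 genes that averaged 1 CPM or more, the strain difference had a 95% interval within 2-fold in 85.9% and within 4-fold in 97.5%.

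The 2 largest called differences toward SHR were in short single-transcript genes. ENSRNOG00000055352, of 164 bases, measured 65.6, 288, 73.2 and 192 CPM in SHR replicates 11, 5, 6 and 9. It measured 0.0348, 0.0144, 0 and 0.0169 CPM in BN-Lx replicates 2, 4, 8 and 9. The strains did not overlap, and the log2 difference was 12.93 ± 0.94 (SE, n = 4 against 4) with an adjusted p of 6.4e-09. ENSRNOG00000059869, of 134 bases, measured 1.1, 4.17, 0.817 and 2.27 CPM in SHR and had no count in any BN-Lx library. SHR was at least 15.7-fold higher, taking its lowest library over a floor of 3 counts per BN-Lx library, with an adjusted p of 0.017.

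The SHR counts of both genes were equal to those of other rows of the table. In all 14 SHR libraries of the study, ENSRNOG00000055352 had exactly the count of another row of 164 bases. In BN-Lx that other row held nearly all counts of the pair, at 516, 133, 636 and 729 CPM. Their sum was 131, 576, 146 and 384 CPM in SHR, so the strains overlapped. The log2 difference of the sum was -0.79 ± 0.54 with an adjusted p of 0.77. ENSRNOG00000059869 likewise had the same count as 3 further rows of 134 bases in every SHR library. In BN-Lx each of those 3 rows measured 5.96, 0.719, 12.1 and 11.9 CPM. The sum of the 4 rows differed by -1.44 ± 0.73 on the log2 scale, with an adjusted p of 0.55. Why the counts are equal was not tested, and the separate levels of such rows are uncertain.

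Toward BN-Lx, the largest called difference was of the same kind and the next was not. ENSRNOG00000057971, of 116 bases, measured 31.3, 4.19, 33.5 and 32.5 CPM in BN-Lx replicates 2, 4, 8 and 9 and had no count in SHR. SHR was at least 59.3-fold lower, with an adjusted p of 2.3e-07. In every BN-Lx library its count equalled that of another row of 116 bases, which measured 18.8, 42.7, 13.3 and 18.4 CPM in SHR. Their sum differed by -1.13 ± 0.68 on the log2 scale, with an adjusted p of 0.68. ENSRNOG00000028449, of 689 bases, shared its counts with no other row by this search. It measured 239, 179, 138 and 82.0 CPM in BN-Lx, and in SHR it had 4 counts in replicate 6 (0.071 CPM) and none in the other libraries. The log2 difference was -12.89 ± 0.63 with an adjusted p of 2.5e-10. On the deposited length-scaled measure (TPM) the means were 159 in BN-Lx and 0.02 in SHR. Its level was 82.0 to 239 CPM over all 14 BN-Lx libraries of the study and 0 to 0.115 CPM over all 14 of SHR.

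**Figure D2:**
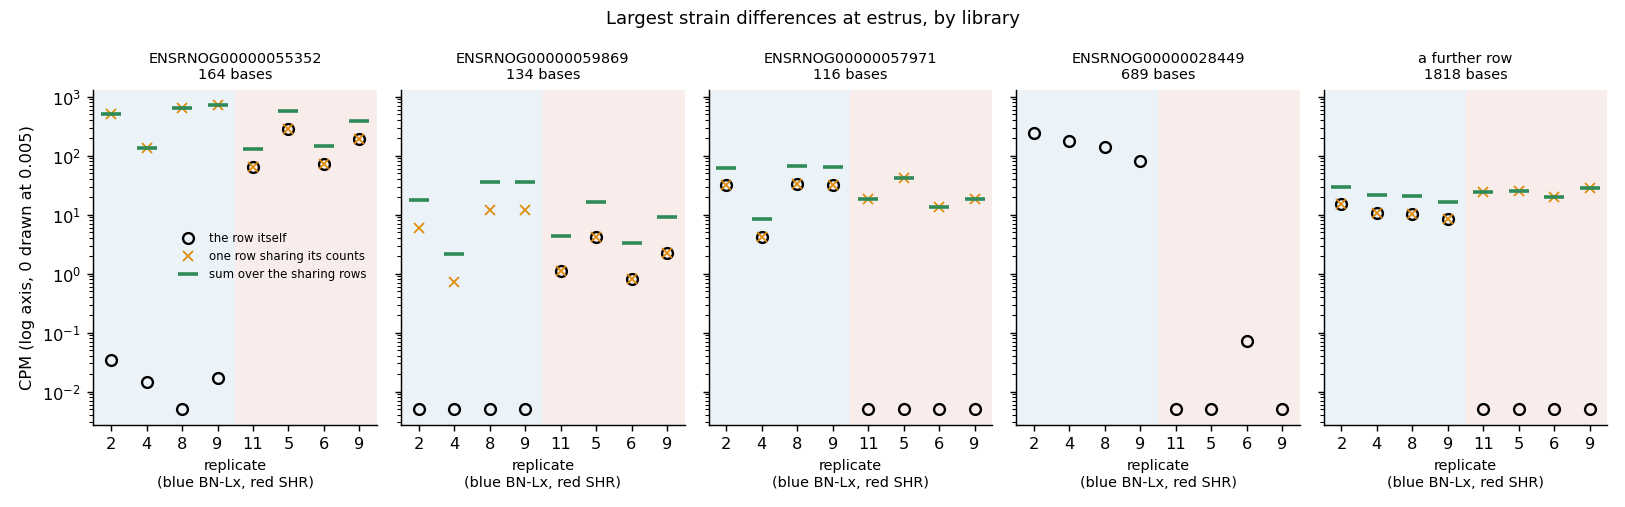
CPM (log axis, 0 drawn at 0.005) of the 4 named genes and of a 1818-base row in each estrus library, with a row that shares its counts (crosses) and the sum over the sharing rows (bars). The sums overlap between the strains in 4 of the 5 panels, and ENSRNOG00000028449, which shares its counts with no row, separates them.

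Equal counts in a strain were found in 164 of the 18134 rows tested (0.904%), and 17 of these (10.4%) were among the 406 called. Of these, 9 equalled another row in BN-Lx alone, 6 in SHR alone and 2 in both strains. They fell into 11 sets of rows of identical length, from 93 to 1818 bases. After the counts of each set were added together, 2 of the 11 sets were called. One was a pair of 729 bases whose counts were equal in both strains, at 70.6 ± 8.2 CPM in BN-Lx against 49.6 ± 6.75 in SHR (SD, n = 4), with an adjusted p of 0.014. The other was a pair of 191 bases, at 45.4 ± 29.1 CPM in BN-Lx against 2.74 ± 1.04 in SHR, which differed on the log2 scale by -3.92 ± 0.51 with an adjusted p of 3e-05. The pair of 1818 bases showed the widest contrast between a row and its sum among rows over 200 bases. One of its rows measured 15, 10.8, 10.3 and 8.3 CPM in BN-Lx and had no count in any of the 14 SHR libraries. The summed level was 22.2 ± 5.61 CPM for BN-Lx against 24.2 ± 3.31 for SHR, and the log2 difference was 0.13 ± 0.22 with an adjusted p of 0.93. With such rows added together throughout the table, the calls numbered 386, with SHR higher in 149 and lower in 237.

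**Figure D3:**
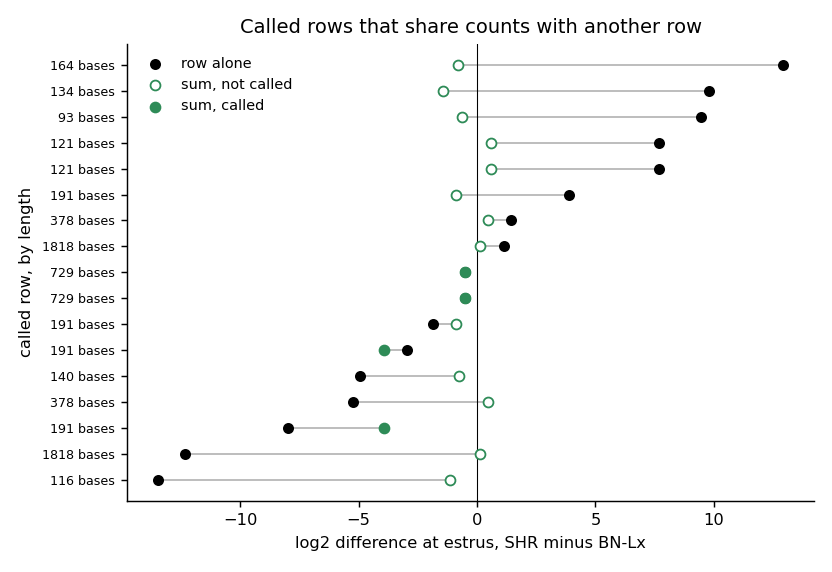
The 17 called rows that share counts with another row, labelled by length, with the log2 difference of the row alone (black) and of the sum over its set (green, filled where called). The sums lie between -3.92 and 0.60, and 2 sets, which hold 4 of the rows, stay called.

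The other 389 called genes did not share counts in this way, and large differences remained among them. Differences beyond 16-fold were called in 61 of them, 32 higher and 29 lower in SHR, and differences beyond 64-fold in 32. Rows whose reads are divided unevenly would not have been found by the search. The 4 genes described next by length were picked, after their values were seen, from lists of the 12 largest called differences in each direction. These lists held only genes that did not overlap at estrus and averaged at least 1 CPM in the higher strain. A gene of 786 bases measured 7.07, 9.58, 7.18 and 8.48 CPM in SHR replicates 11, 5, 6 and 9. In BN-Lx it reached at most 0.0319 CPM. Its log2 difference was 8.81 ± 0.52 with an adjusted p of 1.7e-09. A gene of 1116 bases measured 14.9, 21.3, 15.1 and 17.4 CPM in SHR, against 0.139, 0.0288, 0 and 0.0337 in BN-Lx. Lower in SHR was a gene of 771 bases, at 14.4, 11.8, 15.8 and 16.5 CPM in BN-Lx against 0.208, 0.212, 0.0533 and 0 in SHR. Its log2 difference was -6.86 ± 0.56 with an adjusted p of 1.5e-07. A gene of 2763 bases measured 3.55, 2.91, 2.84 and 1.97 CPM in BN-Lx and had a count in SHR replicate 6 alone, at 0.0178 CPM. The absence of overlap at estrus was a condition of their choice. These 4 genes also did not overlap over all 14 libraries of each strain, which include the estrus libraries. Of the 24 genes on the lists of 12, 20 also did not overlap, in the same direction, over the 10 libraries of each strain outside estrus. Of those 20, 15 had no shared counts. Over all genes tested, the strains did not overlap outside estrus in 1.84%.

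Near-complete absence in one strain was rare. At estrus, 5 genes were at 1 CPM or more in every SHR library and under 0.1 CPM in every BN-Lx library, and 4 showed the reverse. Shared counts in a strain affected 2 of the 5 and 2 of the 4. The 2 rows with at least 1 CPM throughout BN-Lx and no SHR count at estrus were the 116-base and the 1818-base rows described above.

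Called genes over 64 CPM differed by less than called genes as a whole, with a median of 0.80 against 1.13 on the log2 scale. The median was lower still from 16 to 64 CPM, at 0.56. There were several exceptions among the most abundant. Among the 5 most abundant called genes without overlap in each direction, 2 long genes were higher in SHR. A gene of 7017 bases measured 247 ± 15.1 CPM in SHR against 184 ± 6.4 in BN-Lx (SD, n = 4), a log2 difference of 0.42 ± 0.09 with an adjusted p of 0.0098. A gene of 6588 bases measured 244 ± 22.3 CPM in SHR against 183 ± 14.3 in BN-Lx. Lower in SHR was a gene of 2762.7 bases with 2 transcripts, at 231 ± 13.3 CPM against 364 ± 34.5 CPM, a log2 difference of -0.65 ± 0.10 with an adjusted p of 0.00033. One exception without shared counts was a gene of 1100 bases at 224, 178, 147 and 94.7 CPM in BN-Lx, against 8.31, 6.99, 6.2 and 5.99 in SHR. Its log2 difference was -4.53 ± 0.31 with an adjusted p of 2.6e-09, and its mean TPM was 89.6 in BN-Lx against 4.05 in SHR. In the other direction, a gene with 6 transcripts measured 189 ± 16.6 CPM in SHR against 19.5 ± 15.2 in BN-Lx, where its libraries ran from 6.33 to 41.3 CPM. Its log2 difference was 3.36 ± 0.78 with an adjusted p of 0.019. Over all 14 libraries of each strain it ran from 1.16 to 129 CPM in BN-Lx and from 110 to 226 CPM in SHR. The strains thus overlapped over the whole study. The remaining genes of the 5 higher in SHR, of 191 and 164 bases, differed by 3.89 and 12.93 and had shared counts.

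A few very abundant RNAs held much of each library without a called strain difference. The single most abundant gene, of 1571 bases, held 24.67 ± 2.75% of gene counts in SHR and 25.48 ± 6.3% in BN-Lx (SD, n = 4). An exact two-sided permutation test gave p = 0.914, and the difference was 6.05 points among the b35 libraries and -7.67 points among the b37 libraries. The 8 most abundant genes together held 42.84 ± 2.6% in SHR and 44.52 ± 1.77% in BN-Lx, a difference of -1.68 percentage points with an exact permutation p of 0.314, or 0.628 adjusted over 6 library measures. The smallest p that 4 against 4 allows is 0.0286. For the 8 genes the difference was 0.978 points in b35 and -4.34 points in b37. None of the 8 genes was called, with adjusted p-values of 0.71 to 0.97.

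BN-Lx replicate 2 stood apart from the other estrus libraries. Its most abundant gene held 34.139% of gene counts, against 19.685% to 27.257% in the other 7 libraries. On the second principal component, which held 24.7% of the variance, it lay at -94.0, and the other BN-Lx libraries lay at -14.1 to 2.28. The median SD of log2 CPM between replicates was 0.257 in BN-Lx, or 0.154 without that library, against 0.184 in SHR. Without it, 468 genes were called, of which 330 were among the 406.

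The estrus differences pointed the same way in other animals of the same strains. In separate fits that shared no library with the estrus groups, 378 of 379 called genes that could be tested at pre-estrus had the same sign, as did 371 of 375 at post-estrus and 381 of 383 in males. Among genes not called at estrus the same sign was seen in 53.7%, 49.3% and 73.4%. The median ratio of the other log2 difference to that at estrus was 0.938, 0.977 and 0.942. Of the estrus calls, 169 were also called at pre-estrus alone, where 1.34% of genes tested were called, 89 at post-estrus (0.594%) and 38 in males (0.317%), all with the same sign. The male fit compared 2 animals with 2, and with the suffix in the model its SHR side rests on the 1 male library marked b35, as both BN-Lx males are. In the fit of all 28 libraries, 240 genes were called at all 3 female stages, 100 higher and 140 lower in SHR, with a median absolute log2 difference of 1.71 at estrus.

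**Figure D4:**
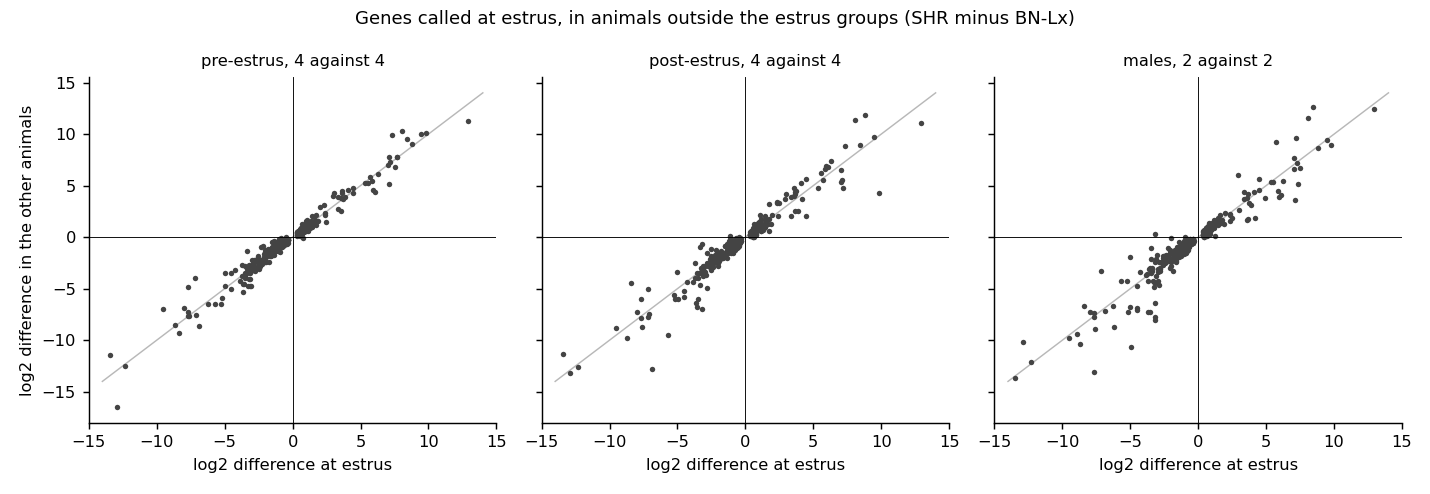
Log2 difference (SHR minus BN-Lx) of the genes called at estrus on the horizontal axis and, on the vertical axis, the same genes in separate fits of pre-estrus, post-estrus and male libraries, with a grey line where both are equal. The points that share a sign number 378 of 379, 371 of 375 and 381 of 383.

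edgeR called no gene for a strain difference particular to estrus. The interaction test compared the strain difference at estrus with the mean of those at pre-estrus and post-estrus, and 0 of 18134 genes were called. At an unadjusted p under 0.05 there were 304 genes (1.68%), and the smallest adjusted p was 0.896. The 1.68% is under the share of 0.05 that evenly spread p-values give, so the test may be conservative. Without BN-Lx replicate 2, 2356 of 18073 genes had an unadjusted p under 0.05, and 0 were called. DESeq2 called 11 and limma 0, with 1792 genes at an unadjusted p under 0.05 by limma. The 95% interval of the interaction lay within 2-fold for 77.3% of genes with at least 1 CPM. Called at estrus and at neither other stage were 81 genes, 28 higher and 53 lower in SHR, with a median absolute log2 difference of 0.80 at estrus and 0.43 at the other stages. Of these 81, 80 had the same sign at both other stages, and 12 had an unadjusted interaction p under 0.05, the smallest 0.002. Choosing the 81 by a call at estrus alone favours a larger difference there and a low interaction p, so neither sets estrus apart. Among the b35 libraries alone the interaction called 7076 genes, and among the b37 libraries 1. The most abundant gene held 22.276% and 19.685% of counts in the b35 BN-Lx estrus libraries and 33.697%, 34.733% and 35.867% in the b35 BN-Lx libraries of the other stages. In the b35 SHR libraries it held 26.804% and 27.257% at estrus and 13.171% to 26.068% at the other female stages. With the share of this gene as a covariate, the b35 libraries gave 4 calls. In the b35 BN-Lx females the share separates estrus from the other stages, so share and stage cannot be told apart there. Why the number of calls changed was not tested.

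The deposited transcript lengths differed between the strains in a few genes with several transcripts. Each value is the authors' mean transcript length of a gene, weighted by the estimated abundance of its transcripts, so it moves when their proportions move. Of 4128 genes tested with limma, 23 (0.557%) were called, 7 longer and 16 shorter in SHR. All 23 had strain values that did not overlap, as did 158 of the 4128 tested. The interaction with stage called 0 genes with limma, with 147 at an unadjusted p under 0.05 and a smallest adjusted p of 0.978. Of the 23, 3 were also called by count. The share called by count was 1.74% of genes with 2 transcripts and 1.85% of those with 3 or more.

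ENSRNOG00000007407, with 2 transcripts, had the narrowest spread among the 4 genes named for length. Its length was 554, 553, 550 and 549 bases in BN-Lx replicates 2, 4, 8 and 9, and 647, 647, 647 and 646 bases in SHR replicates 11, 5, 6 and 9. The log2 difference was 0.23 ± 0.0037 with an adjusted p of 2.2e-20, while its count level differed by 0.12 ± 0.11 with an adjusted p of 0.88. ENSRNOG00000010164 was also longer in SHR, at 3105.8 ± 176 bases against 2642.8 ± 68.2 bases (SD, n = 4), with an adjusted p of 0.011. ENSRNOG00000030712 was shorter in SHR, at 1151.1 ± 161 bases against 1562.7 ± 38.1 bases, with an adjusted p of 0.028. Its level was lower as well, at 3.69 ± 0.451 CPM in SHR against 13.8 ± 3.47 in BN-Lx, a log2 difference of -1.91 ± 0.23 with an adjusted p of 7.3e-06. ENSRNOG00000015150 was shorter in SHR, at 3269.8 ± 106 bases against 3876.0 ± 187 bases, with an adjusted p of 0.0069.

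**Figure D5:**
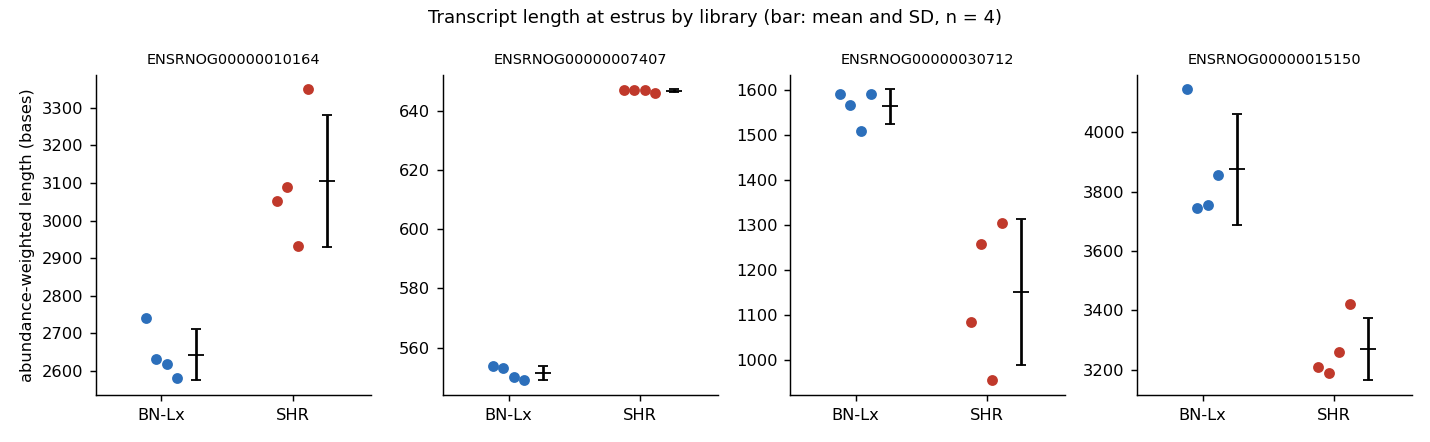
Abundance-weighted transcript length in bases of the 4 named genes in each estrus library (points), with the mean and SD of 4 libraries per strain (bars). The axes do not start at 0, and the strains do not overlap in any of the 4 genes.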

How the data were processed

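The deposited files hold expected counts per gene, estimated by the authors with RSEM after trimming with cutadapt, per the submitters' processing notes, which give no version. RSEM divides a read that fits several genes between them. The deposited TPM values, scaled by the authors for length and depth, were used only to give a gene's mean level in each strain beside its CPM. The authors' gene lengths in bases were read from the same deposited files. Per the labels, RNA was depleted of ribosomal RNA and made into stranded libraries that were read as pairs of 2x100 bases. An aligner, a genome build or an annotation version was not given in the sources used here.

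Expected counts were rounded, and spike-in rows entered neither library sizes nor tests. All 28 libraries entered an edgeR 4.0.16 quasi-likelihood fit (R 4.3.3, robust, TMM, filterByExpr with a minimum of 10 counts) with a term per strain-by-stage group and one for the suffix, leaving 19 residual degrees of freedom. The other groups therefore share in the estimate of the spread. Benjamini-Hochberg adjustment covered all genes tested. Standard errors are approximate, since they were taken from the F statistic. DESeq2 1.42.0 and limma 3.58.1 (voom with quality weights) were alternatives. Lengths of genes with more than 1 transcript and at least 10 counts in every library were tested on the log2 scale with limma, a comparison added after seeing the data. Replicate libraries were compared by chi-square, and no pair agreed within sampling noise (30.1 to 658 per degree of freedom). Rows were taken to share counts where rounded counts were equal in all 14 libraries of a strain with a total of at least 50.

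Of the gene identifiers, 0 matched a symbol in the reference tables, so the 38 gene lists and the cell type markers were not tested, and no sequences are shown. Named genes are the 2 called genes with the largest change in each direction, a mean of 1 CPM or more in the higher strain and no overlap. The 4 named for transcript length are the 2 longer and 2 shorter in SHR with the largest change. The comparison, lists and rules were chosen with earlier results of these data known.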

Additional observations from a re-analysis of the deposited data

Results flagged for a closer look

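Within-group values were screened for a library far from the other 3 of its group, by the ratio of its gap to the whole range. Chance alone marks about 1 in 20 groups of 4, and 3 of 26 groups examined were marked. ENSRNOG00000028449 measured 0.071 CPM in SHR replicate 6 and 0 in the other 3 SHR libraries. With 3 values at 0, any count in the remaining library gives a mark, so the rate of 1 in 20 does not apply there. ENSRNOG00000057971 measured 4.19 CPM in BN-Lx replicate 4 and 31.3 to 33.5 CPM in the other 3 BN-Lx libraries. On the second principal component BN-Lx replicate 2 lay at -94.0, with the other 3 BN-Lx libraries at -14.1 to 2.28. What sets these libraries apart was not tested.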

How the results depend on the processing

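No paired analysis was possible because the labels give no pairing between SHR and BN-Lx animals. The 406 calls became 649 with DESeq2, 1266 with limma and with the share of the most abundant gene as a covariate, 167 and 1201 with edgeR and limma on the 8 estrus libraries alone, and 122 in the b37 libraries. The limma test on 8 libraries, the added rows and the covariate within b35 (240 calls) were chosen after seeing the data. The range without each library in turn was 270 to 468. Median-of-ratios size factors gave 408 calls, no filter on low counts 322, no suffix term 376, the table without the 8 most abundant genes 404 and rows with equal counts added together 386. The interaction moved from 0 calls to 11 with DESeq2, 7076 in the b35 libraries, 1 in the b37 libraries and 4 in the b35 libraries with the covariate, and to between 0 and 1 without single libraries. The cause of these moves was not tested. With equal rows added together the log2 difference of ENSRNOG00000055352 became -0.79 and that of ENSRNOG00000059869 became -1.44. The latter kept a log2 difference of 8.09 to 10.5 but not its call with limma (adjusted p 0.052), within b35 (0.1), b37 (0.45) and b35 with the covariate (0.27), and without BN-Lx replicates 8 (0.053) and 9 (0.055). ENSRNOG00000057971 lost its call within b37 (-13.05, adjusted p 0.082), in b35 with the covariate (-12.63, 0.085) and with equal rows added together (-1.13, 0.68). The share of the 8 most abundant genes reversed to 0.978 points in the b35 libraries. Length calls ran from 17 to 25 without single libraries. Depth limits genes under 1 CPM, whose median standard error was 0.74.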
